A study of Homo sapiens with 4 samples.

Results

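The genes for the 10 enzymes that make serine, one-carbon units, asparagine, proline and cysteine were examined in A549 cells treated with embelin: PHGDH, PSAT1, PSPH, SHMT2, MTHFD2, ALDH1L2, ASNS, ALDH18A1, PYCR1 and CTH. The list was drawn up by function, with earlier results of these data known, and each gene was taken with the array probes that carry its symbol or one of its RefSeq transcripts. This gave 18 of 50238 probes and 10 of 30970 genes or transcripts on the array. A549 is a human lung adenocarcinoma line, and embelin is a benzoquinone of plant origin. The experiment asked which transcripts differ early after embelin, at 4 h. There were 2 control samples, labelled as untreated, and 2 samples treated with 15 µM embelin for 4 h, each hybridized to 1 single-colour array. All samples had been moved to a medium with little serum before treatment, the labels name no vehicle for the controls, and no source says that the replicates were separate cultures. The p-values below therefore measure only the spread between these samples, and bulk RNA cannot tell fewer expressing cells from less RNA per cell.

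Serine is built from a glycolytic intermediate by PHGDH, PSAT1 and PSPH acting in turn. In mitochondria SHMT2 passes a carbon of serine to folate, MTHFD2 oxidizes the loaded folate, and ALDH1L2 burns its formyl group to carbon dioxide. ASNS makes asparagine from aspartate and glutamine, ALDH18A1 and PYCR1 carry out the first and the last step of proline synthesis from glutamate, and CTH releases cysteine in the transsulfuration pathway. When amino acids run short or the endoplasmic reticulum or mitochondria are stressed, kinases phosphorylate the translation factor eIF2, the transcription factor ATF4 is made in larger amounts, and it binds CARE elements near many of these genes.

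ASNS carries one of the best studied of these elements, and its promoter is shown for that reason. Promoters of 6 of the 10 genes were found in the RefSeq sequences of build GRCh38.p14 (250 bases before to 50 bases after a start site), 7 in all since ASNS has a pair of start sites; PSPH, SHMT2, ALDH1L2 and PYCR1 had no entry there. The letters TGATGNAA, a core of the CARE element, were searched on both strands. They stood in 1 of the 7, the outer ASNS promoter, and in 3.62% of all 35116 promoters. The first base of the match lay at -68 from the start site, and the stretch around it, on the minus strand at chr7:97872439-97872506 with the match in capitals, reads as follows.
ASNS promoter, -98 to -31: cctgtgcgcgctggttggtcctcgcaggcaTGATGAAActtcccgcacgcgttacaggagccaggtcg
The E-box CACGTG stood in 1 of the 7 promoters (ALDH18A1) and in 7.26% of all. The letters TGACNNNGC, a core of the antioxidant response element, stood in 1 of the 7 (MTHFD2) and in 13.3% of all, and the hypoxia element ACGTG, which overlaps the E-box, in 2 of the 7 (ALDH18A1 and MTHFD2) and in 21.4% of all. A match of letters is not a bound site, and elements outside these windows were not searched.

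The array reads each gene by probes of 60 bases, and some of these share runs of bases with other probes. The sequences of a pair of PSPH probes line up with starts 13 bases apart. They differ at 3 of the 47 bases in which they overlap, shown here in capitals in windows of 30 bases. Where either probe lies in a transcript was not checked.
PSPH probe, the brighter: tttactcttagAaataCGgattcggcagcc
PSPH probe, the dimmer: tttactcttagGaataTAgattcggcagcc
The PSPH results below rest on the brighter probe of this pair.

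Signals are given as log2 of the scanner intensity after each array was scaled to a common 75th percentile, so that a difference of 1 is a doubling. Each probe has its own brightness, and signals were compared between samples of 1 probe only. At the probes standing for the 10 genes the signal was well above background on all 4 arrays, and it ranged from 7.28 to 15.46. The share of all probes well above background was 66.7% and 66.4% on the arrays of control replicate 1 and embelin replicate 2, but 50.3% and 51.2% on those of control replicate 2 and embelin replicate 1. Each group thus held 1 array with more and 1 with fewer probes above background, and differences are also given within these pairs. Arrays of 1 group correlated at r = 0.97 over the genes tested, arrays of different groups at 0.926 to 0.968, and all 4 lay on 1 slide and 1 scan, the controls at positions 4 and 1 and the embelin samples at positions 2 and 3. Of the 10 markers fixed as a check of the line 9 were well above background on all 4 arrays, among them EPCAM, CDH1, KRT8 and KRT18. The list also holds the redox enzymes AKR1B10, AKR1C1 and NQO1, and its summed linear signal was 732270 and 766792 in the controls and 651549 and 666202 with embelin. Only CLDN4 of these was called different, higher by 2.78 in log2 with adjusted p = 0.0270 by limma, and 1 control array did not show it clearly above background. Of 8 fibroblast and 9 blood and endothelial markers, 2 and 3 were tested, and the defining COL1A2, DCN, PTPRC, PECAM1 and HBB were among those not kept. Of the 5 tested, COL1A1 was at 1.30 (adjusted p = 0.0547), CD3E at 1.25, CD68 at 0.39, THY1 at -0.52 and CD14 at -0.60, and none was called. Their part in the results was not tested.

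Among the 10 genes MTHFD2 was 2.37-fold higher with embelin and ASNS 1.64-fold higher, while the other 8 genes had fitted differences between -0.69 and 0.13 in log2. After Benjamini-Hochberg adjustment over the 17649 genes or transcripts tested with limma, 0 of the 10 genes were called, where 1.81% of all genes were called, 1.25% higher and 0.561% lower. At an unadjusted p under 0.05 there were 2 of the 10, MTHFD2 and ASNS, which is close to the 19.5% of all genes at that level by limma. The same 2 were under 0.05 by the methods' t-test, with 15.8% of the genes that have a value on all 4 arrays. MTHFD2 alone was at least 2-fold different with an unadjusted p under 0.05, the threshold of the methods with limma in place of the t-test, which 8.26% of all genes passed, 4.26% as higher and 3.99% as lower. The embelin samples lay above both controls for 3 genes (MTHFD2, ASNS and PHGDH) and below both for 1 (CTH), and they overlapped with the controls for 6. Over all genes 51.8% did not overlap, 21.1% above and 30.7% below. The median log2 difference was -0.11 over the 10 genes and -0.06 over all genes tested.

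**Figure D1:**
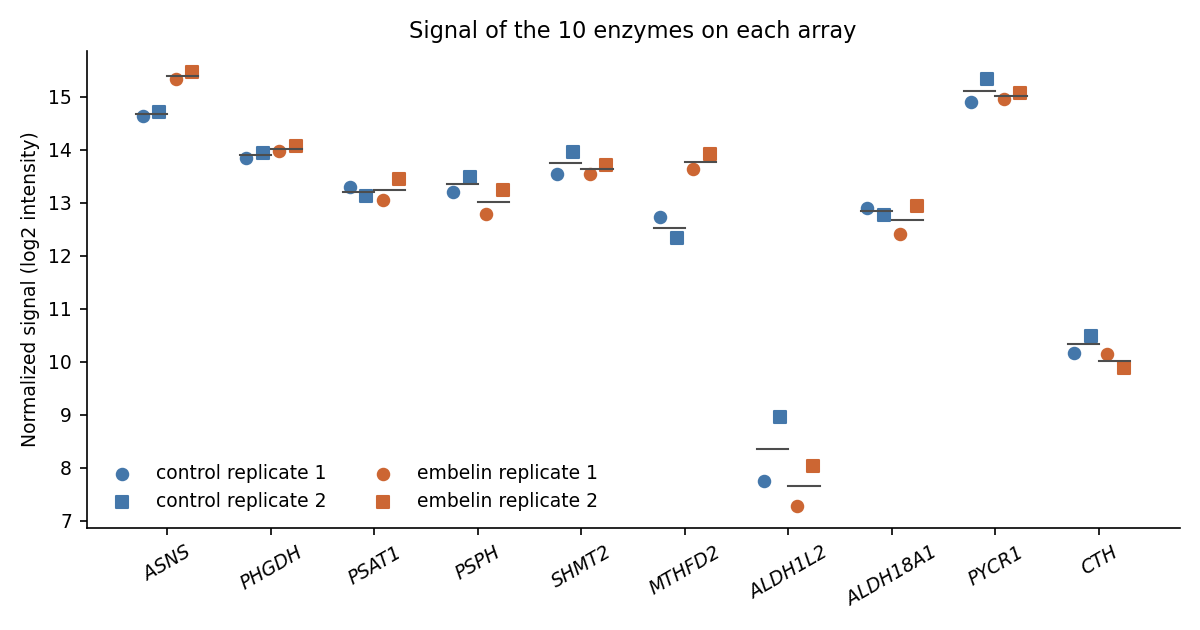
Log2 signal, scaled to a common 75th percentile, of each of the 10 enzyme genes on the 2 control and the 2 embelin arrays, with 1 point per array. MTHFD2 (12.73 and 12.33 in the controls, 13.64 and 13.91 with embelin) and ASNS separated clearly, and levels are comparable within a gene only.

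MTHFD2, the mitochondrial dehydrogenase and cyclohydrolase of the folate cycle, showed the highest difference among the 10 genes. Its log2 signal was 12.73 and 12.33 in control replicates 1 and 2, and 13.64 and 13.91 in embelin replicates 1 and 2. Both embelin samples were well above both controls, and the smallest gap between a control and an embelin sample was 0.91. The log2 difference was 1.25 (SE 0.23, 95% interval 0.62 to 1.87), a fold difference between 1.54 and 3.66, with adjusted p = 0.0891 by limma. Ordered by the fitted difference, MTHFD2 stood at place 849 of 17649. The difference was 1.18 within the pair of arrays with more probes above background and 1.32 within the other pair. Its adjusted p was 0.0475 when only probes well above background on all 4 arrays were tested and 0.0174 with a trended and robust variance prior, and it ran up to 0.493 over all the alternatives. MTHFD2 was read by 1 probe, which shared no run of 20 bases with any other probe on the array, and whether pseudogenes of MTHFD2, ASNS, PSAT1 and PSPH add to their signals was not tested.

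Relative to the probe of its cytosolic counterpart, the MTHFD2 signal was higher on both embelin arrays than on either control array. Only the change of such a difference between arrays has a meaning, since its size depends on the brightness of each probe. MTHFD1, which does the same chemistry in the cytosol, had log2 signals of 13.76 and 13.94 in the controls and 13.44 and 13.80 with embelin, a difference of -0.23 (SE 0.21, adjusted p = 0.613 by limma). Within each array the signal of MTHFD2 minus that of MTHFD1 was -1.03 and -1.61 in the controls, and 0.20 and 0.11 with embelin. This difference thus shifted by 1.48 (SE 0.29), and the groups did not overlap, as for every counterpart pair tested. An exact two-sided permutation test gave p = 0.333, the smallest that 2 samples against 2 allow. The other mitochondrial isoenzyme, MTHFD2L, was too dim to be tested.

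ASNS, the asparagine synthetase, had the next highest difference. Its log2 signal was 14.64 and 14.71 in the controls and 15.32 and 15.46 with embelin. The control samples differed by only 0.07, and the closest control and embelin samples by 0.61. The log2 difference was 0.72 (SE 0.16, 95% interval 0.26 to 1.17), a fold difference between 1.20 and 2.24, with adjusted p = 0.127 by limma. Within the pairs with more and with fewer probes above background it was 0.82 and 0.61. With a trended and robust variance prior ASNS was called, at adjusted p = 0.0268, and over the alternatives its adjusted p ran up to 0.60.

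A probe outside the 18, annotated on the array only as a transcript cluster (THC2568453), shares 43 bases with the ASNS probe, and it was picked after the sequences had been seen. A stretch of 30 of the shared bases is printed in capitals.
ASNS probe and transcript cluster probe: TGGGTAGATAGGGGAACAATGAGAGTCAAC
The log2 signal of this probe was 13.18 and 13.17 in the controls and 13.93 and 13.98 with embelin, a difference of 0.78 (SE 0.16, adjusted p = 0.105 by limma). It is not an independent reading, since most of its sequence is the same. A second ASNS probe, matched to a cDNA clone, was well above background on 1 control and 1 embelin array and was left out of the test, and its log2 difference was 0.04.

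**Figure D2:**
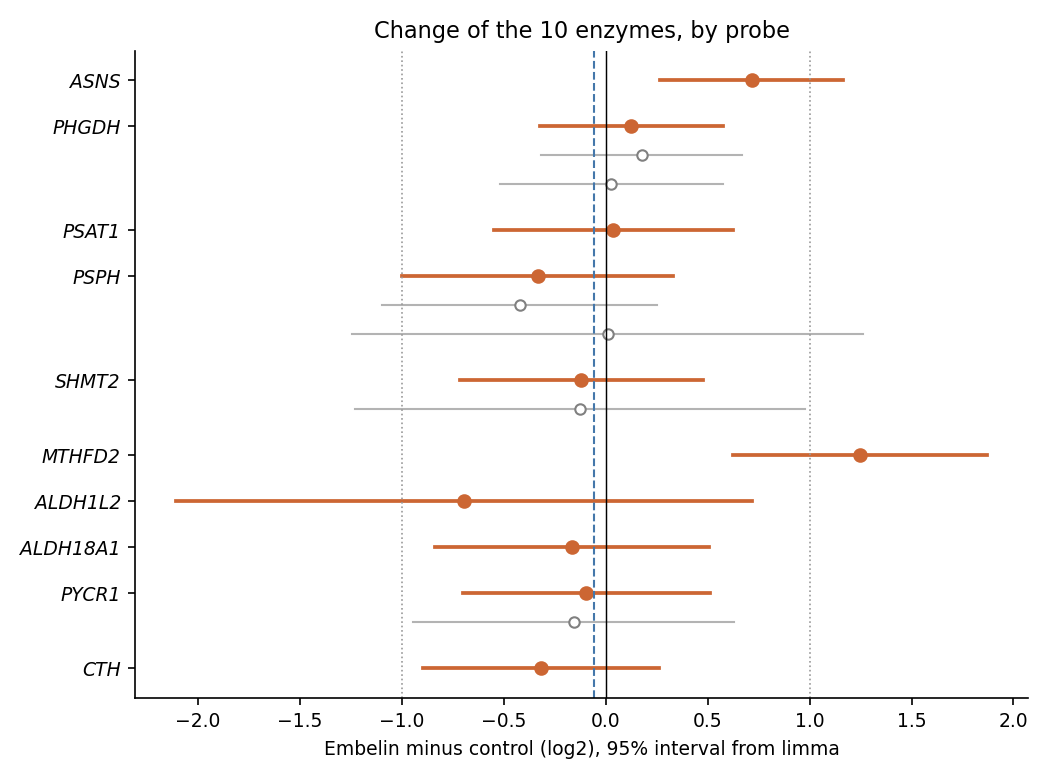
Log2 difference of embelin minus control for each of the 10 genes with its 95% interval from limma. The intervals of MTHFD2 (0.62 to 1.87) and ASNS (0.26 to 1.17) lay above 0 and those of the other 8 genes held 0.

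The enzymes that build serine itself had intervals that held 0. PHGDH, which commits the glycolytic intermediate to serine, had log2 signals of 13.85 and 13.94 in the controls and 13.97 and 14.07 with embelin. The embelin samples lay above the controls by as little as 0.03, and the log2 difference was 0.13 (95% interval -0.32 to 0.57, adjusted p = 0.732 by limma). The other PHGDH probes gave 0.18 and 0.03, of which the first overlaps the main probe by 59 bases and is no separate measurement. PSAT1, the aminotransferase that follows, was at 13.29 and 13.13 in the controls and 13.05 and 13.44 with embelin. The controls lay between the embelin samples, and the log2 difference was 0.04 (95% interval -0.55 to 0.62, adjusted p = 0.948). PSPH, the phosphatase of the last step, was at 13.21 and 13.49 in the controls and 12.79 and 13.24 with embelin. The samples overlapped, and the log2 difference was -0.33 (95% interval -0.997 to 0.329, adjusted p = 0.517). Its overlapping probe gave -0.42, and a further probe, which shares runs of bases with probes of other genes, gave 0.01.

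SHMT2 and ALDH1L2, which act beside MTHFD2 in mitochondria, had fitted differences below 0, with intervals that held 0. SHMT2, which feeds MTHFD2 with one-carbon units from serine, was at 13.55 and 13.95 in the controls and 13.54 and 13.71 with embelin. The groups overlapped, with a log2 difference of -0.12 (95% interval -0.72 to 0.48, adjusted p = 0.818 by limma), and a further probe gave -0.13. For ALDH1L2, the mitochondrial formyl-folate dehydrogenase, the signals were 7.75 and 8.95 in the controls and 7.28 and 8.04 with embelin. The controls alone differed by 1.20, the log2 difference was -0.69 (95% interval -2.11 to 0.72, adjusted p = 0.528), and leaving out 1 array moved the difference from -1.30 (without control replicate 1) to -0.093 (without control replicate 2). ALDH1L2 is thus the least precisely measured of the 10 genes, with an interval that holds both a 0.232-fold and a 1.65-fold ratio. MTHFD1L, the mitochondrial enzyme that makes formate from the product of MTHFD2 and is not one of the 10, was at 0.60 (SE 0.17, adjusted p = 0.175) and was named after its value was seen. SHMT1, the cytosolic form of SHMT2, was at -0.42 (SE 0.19, adjusted p = 0.333). The signal of SHMT2 minus that of SHMT1 shifted by 0.30 (SE 0.22, exact permutation p = 0.333), and ALDH1L1, the cytosolic counterpart of ALDH1L2, was too dim to be tested.

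Among the proline enzymes, ALDH18A1, the synthase of the first step, was at 12.89 and 12.78 in the controls and 12.40 and 12.94 with embelin. The embelin samples lay on both sides of the controls, and the log2 difference was -0.17 (95% interval -0.84 to 0.51, adjusted p = 0.772 by limma). PYCR1, the mitochondrial reductase of the last step, was at 14.89 and 15.33 in the controls and 14.96 and 15.07 with embelin. Here the embelin samples lay between the controls, the log2 difference was -0.10 (95% interval -0.70 to 0.51, adjusted p = 0.863), and a probe for another transcript of the gene gave -0.16. PYCR3, a relative, was at -0.51 (adjusted p = 0.207). The signal of PYCR1 minus that of PYCR3 shifted by 0.41 (SE 0.18, exact permutation p = 0.333).

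CTH, which splits cystathionine to cysteine, was the one gene of the 10 whose embelin samples both lay below the controls. Its log2 signals were 10.17 and 10.49 in the controls and 10.14 and 9.88 with embelin. The nearest samples differed by only 0.03, and the log2 difference was -0.32 (95% interval -0.90 to 0.26, adjusted p = 0.482 by limma). For CBS, which makes cystathionine one step earlier, the log2 difference was 0.26 (SE 0.21, adjusted p = 0.556). The signal of CTH minus that of CBS shifted by -0.58 (SE 0.26), with groups that did not overlap and exact permutation p = 0.333. Lack of overlap does not set this pair apart, since it held for every counterpart pair tested, SHMT2 minus SHMT1 and PYCR1 minus PYCR3 included. Its share over other pairs of genes was not computed.

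**Figure D3:**
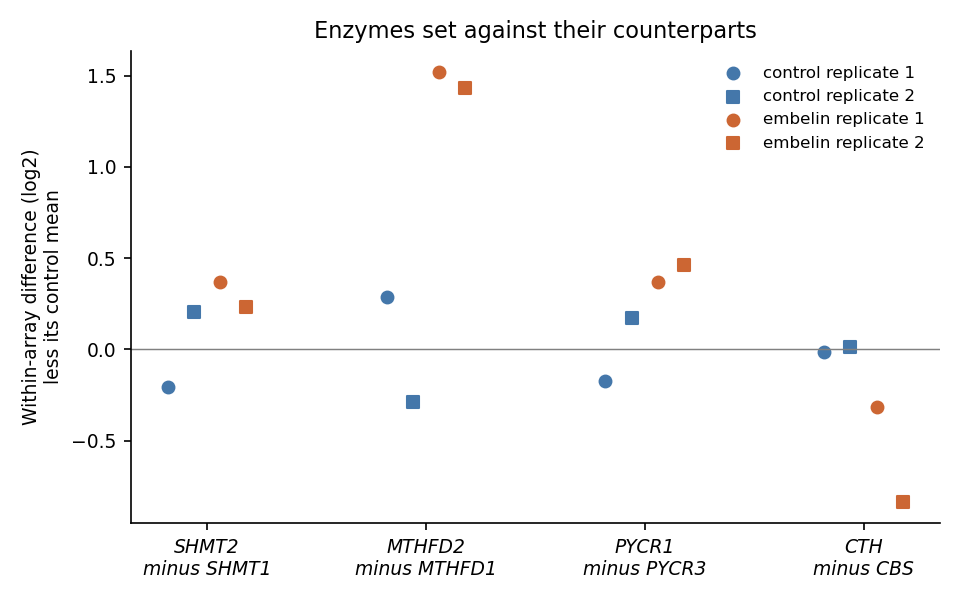
Within-array log2 signal of each enzyme minus that of its counterpart, less the mean of this difference over the controls, on the 2 control and the 2 embelin arrays, with 1 point per array. MTHFD2 minus MTHFD1 lay 1.48 higher on average with embelin, and CTH minus CBS was lower on both embelin arrays. The groups did not overlap for any of the pairs shown.

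The intervals bound what could have been missed only at the probe standing for each gene. For the 8 genes other than MTHFD2 and ASNS the upper end of the fold interval lay between 1.20 and 1.65. A doubling thus lay outside all 8 intervals of these probes. The lower end lay above 0.5 for 7 of the 8, for PSPH only just (0.501), the exception being ALDH1L2. Some other probes had wider intervals when every kept probe was fitted. The PSPH probe that shares runs of bases with probes of other genes had a log2 interval of -1.24 to 1.26, which holds a doubling. The further SHMT2 probe had -1.23 to 0.98. The PSPH probe standing for its gene had -1.01 to 0.34 in that fit, and its overlapping probe had -1.10 to 0.25. Both of these PSPH intervals hold a 2-fold lower value. The sign of the small differences depended on the array pair. Within the pair with more probes above background (control replicate 1 and embelin replicate 2) 9 of the 10 genes had a difference above 0, with a median of 0.17. Within the other pair 7 of the 10 were below 0, with a median of -0.36. The median over all genes was -0.06 and -0.09 in these pairs. MTHFD2, ASNS and PHGDH were above 0, and CTH was below 0, within both pairs. This follows from the lack of overlap given above and is no separate support. The part of the arrays' background in these values was not tested.

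Genes around the 10 enzymes were taken from lists of their pathways. Of 34 further genes of serine, glycine and folate metabolism 27 were tested, 0 were called after adjustment by limma, and their median log2 difference was -0.15. SDS, which degrades serine, was the only one past the 2-fold threshold, at 6.92 and 7.51 in the controls and 8.41 and 9.06 with embelin (log2 difference 1.52, SE 0.34, adjusted p = 0.123). It was named after its value was seen. Of 20 genes of asparagine, aspartate, glutamate and proline metabolism 17 were tested, 0 were called, and the median was -0.19. GPT2, a mitochondrial transaminase of alanine and glutamate, and ARG2, the mitochondrial arginase, passed the 2-fold threshold as higher, at 1.44 (adjusted p = 0.0815) and 1.07 (adjusted p = 0.0730). GLUL, the glutamine synthetase, passed it as lower, at -1.18 (adjusted p = 0.168), with 1 embelin array left out as an outlier spot, so that a single embelin value (5.33) was set against 2 controls and the spread came from the controls and the prior. These 3 were likewise named after their values were seen.

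Among 21 genes of methionine and transsulfuration metabolism 16 were tested, with a median of -0.09, and 1 was called. This was CHAC1, an enzyme that degrades glutathione. Its log2 signal was 9.65 and 9.58 in the controls and 11.48 and 11.37 with embelin, and both embelin samples were far above the controls. It rose by 1.82 in log2 (SE 0.16, adjusted p = 0.0357 by limma). SUOX, the sulfite oxidase, was at -2.08 (SE 0.27, adjusted p = 0.0551), past the 2-fold threshold but not called, and was named after its value was seen. Of 16 transporters of serine, glycine, asparagine, proline and cystine 10 were tested, 0 were called or passed the 2-fold threshold, and the median was 0.05.

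Several regulators of the stress response rose with embelin. The list of stress response regulators was drawn up with earlier results of these data known. All 17 genes on it were tested, and their median log2 difference was 0.64. Of these 4 were called, all higher, where 1.25% of all genes were called higher. The embelin samples lay above both controls for 10 of the 17 and below both for 2, against 21.1% and 30.7% of all genes. The 2 below were ATF5 (-0.55, adjusted p = 0.257 by limma) and EIF2AK2 (-0.52, adjusted p = 0.436), named after their values were seen. The 3 with the highest differences were ATF3 (5.71, SE 0.19, adjusted p = 0.0204 by limma), a transcription factor of acute stress, DDIT3 (4.24, SE 0.16, adjusted p = 0.0204), which encodes CHOP, and PPP1R15A (3.27, SE 0.25, adjusted p = 0.0268), which directs the dephosphorylation of eIF2. The fourth was TRIB3, a pseudokinase that binds ATF4, at 1.97 (adjusted p = 0.0350), which was named after its value was seen. ATF4 itself was at 16.37 and 16.42 in the controls and 16.96 and 16.87 with embelin. Its embelin samples lay above the controls, with a log2 difference of 0.52 (SE 0.16, adjusted p = 0.199), and it was not called. ATF4 is controlled largely at translation, which these arrays did not measure.

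**Figure D4:**
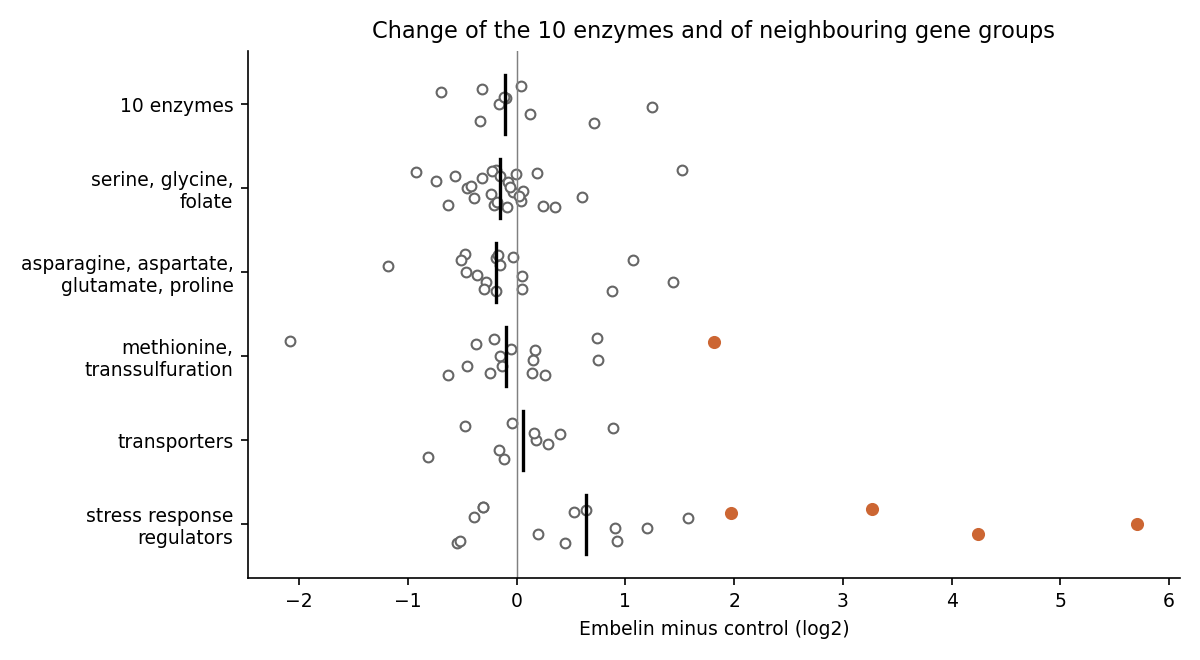
Log2 difference of embelin minus control for every tested gene of the 10 enzymes and of the 5 lists around them, with 1 point per gene, filled where the gene was called after adjustment, and a bar at the median of each list. The regulators, listed with earlier results known, had a median of 0.64 and lay between -0.55 (ATF5) and 5.71 (ATF3). The enzymes had a median of -0.11 and lay between -0.69 and 1.25.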

How the data were processed

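The authors deposited Cy3 intensities from Agilent Feature Extraction 10.7.3.1 (per the file headers), background-subtracted, detrended and not normalized between arrays. Each array was shifted to a common 75th percentile, as in the methods, and log2 was taken after a floor of 1. Outlier spots were dropped, which left 918 probes without a value on at least 1 array. A probe entered the test if either group had it well above background on its 2 arrays (26146 probes), and where a gene had several, the brightest by mean log2 signal was used. Groups were compared with limma 3.58.1 in R 4.3.3 (lmFit, eBayes), with Benjamini-Hochberg adjustment over 17649 genes or transcripts. The fit was tested on simulated data. The number of arrays limits the precision (median pooled SD 0.21). No genome coordinates were used for the probes, and promoters came from RefSeq.

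The named genes were the 10 enzymes, their counterparts, ATF4, and from each list around them the genes called after adjustment, or the 3 with the largest change where more than 3 were called. A few items under this rule go unreported. Others are said to have been named after their values were seen. The 10 genes and the lists were chosen with earlier results of these data known.

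Alternatives covered background correction (normexp, offset 50), quantile normalization, the authors' deposited table, dropping the filter or asking for all 4 arrays, Student's t-test of the methods, a trended and robust eBayes, a block for replicate number or for arrays with a like share of probes above background, averaging or separating the probes of a gene, slide position, and leaving out each array.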

Additional observations from a re-analysis of the deposited data

Results flagged for a closer look

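The second ALDH1L2 probe, which was not part of the test, was well above background on 1 of the 4 arrays. Its log2 signal was 4.30 in embelin replicate 2, where the scanner software called it well above background, and 3.96 in embelin replicate 1 and 3.51 and 3.76 in the controls, where it did not. It was singled out because a signal appeared in data outside the comparison and in no control sample. Embelin replicate 2 was 1 of the 2 arrays with a larger share of probes above background, and control replicate 1, the other, had no call at this probe. No direction was read from this probe.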

How the results depend on the processing

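Counts of all genes called varied most with the processing, from 221 higher and 99 lower as reported to 422 and 277 with normexp, 177 and 63 with quantile normalization, 126 and 33 with the deposited table, 419 and 345 with the filter that asked for all 4 arrays, 566 and 495 with trend and robust, 162 and 56 with the mean over probes, 217 and 65 with each probe on its own, and 304 and 151 with the 75th percentile over probes with a value on all 4 arrays, which was chosen after seeing the data. The counts were 0 and 0 without the filter, with the methods' t-test, with either block, with position, and leaving out any 1 array (0 to 0), although 2131 to 3743 genes had an unadjusted p under 0.05 in these fits. Of the 10 enzymes 1 was called with the all-array filter (MTHFD2) and 2 with trend and robust (MTHFD2 and ASNS), all higher, and 0 under the other alternatives. ALDH1L2 was at least 2-fold lower without control replicate 1 (log2 difference -1.30) and without embelin replicate 2 (-1.07). No other enzyme was at least 2-fold lower under any alternative. Leaving out 1 array reversed small differences: PSAT1 ranged from -0.16 to 0.23 (-0.04 without control replicate 2, -0.16 without embelin replicate 2), SHMT2 from -0.32 to 0.082, PYCR1 from -0.32 to 0.12 (0.082 and 0.12 without control replicate 2) and ALDH18A1 from -0.43 to 0.10 (0.10 without embelin replicate 1). The causes were not tested. MTHFD2 ranged from 1.05 to 1.45 and ASNS from 0.65 to 0.78 over all alternatives. Same-numbered samples correlated at 0.175 in their deviations from the group means, but with only 2 pairs the samples share only a number, and with the replicate number as a block MTHFD2 had adjusted p = 0.139, ASNS adjusted p = 0.162 and 0 genes were called.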
